A study of Mus musculus with 3 samples.

Results

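Heat shock proteins and their co-chaperones are the cell's protein-folding machinery, and the messenger RNAs described here are those of 46 mouse genes chosen by symbol alone: the HSP70 and HSP110 genes (Hspa1a to Hspa14 and Hsph1), both cytosolic HSP90 genes and Hsp90b1, the J-domain genes (Dnaja and Dnajb), the small heat shock proteins (Hspb), the mitochondrial pair Hspd1 and Hspe1, the co-chaperone Bag3 and the transcription factor Hsf1. They are 46 of 32285 genes in the files, of which 25292 had a UMI (a counted transcript molecule) in a kept cell. Of the 46, 44 had at least 50 UMIs. Dnajb7 had 18 and Dnajb8 had 0, and neither is described further.

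Single cells were sequenced from tibialis anterior muscle of C57BL/6J mice 4 days after injury by injection of barium chloride, which kills muscle fibres and starts their regeneration. The 3 groups were young PBS (mice of 3 to 4 months), old PBS (24 to 26 months) and old rMETRNL (24 to 26 months). PBS was the vehicle, and rMETRNL is recombinant meteorin-like protein, a secreted factor injected into the muscle after the damage. Each group was 1 library, for which the study's methods pooled 3 muscle samples, so there is no spread between animals, no test was possible, and every interval below is a 95% interval of counting error only.

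The comparison of old PBS with young PBS asks how injured old muscle differs from young. The comparison of old rMETRNL with old PBS asks what differs where the protein was given. Both use the same old PBS library, so a value that is low in that library alone gives a low first ratio and a high second ratio. Levels are given as CPM, the UMIs of a gene divided by all UMIs of the same cell class in the same library, with every library scaled to the same fixed total. A gene was called past 1.5-fold where its CPM ratio was at least 1.5 or at most the inverse of that.

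Cytosolic chaperones of the HSP70 family bind unfolded stretches of protein, J-domain proteins deliver the clients and start ATP hydrolysis, and HSP110 proteins such as Hsph1 exchange the nucleotide. HSP90 completes the folding of kinases and receptors, small heat shock proteins hold clients against aggregation, and the chaperonin of Hspd1 with its lid Hspe1 folds proteins inside mitochondria. Hsf1 is the factor that switches on Hspa1a, Hspa1b and related genes when unfolded proteins accumulate, whereas Hspa5 and Hsp90b1 answer to unfolded proteins in the endoplasmic reticulum. In muscle, several small heat shock proteins and Bag3 are known for guarding the contractile apparatus. Separating a tissue into single cells is itself known to switch on Hspa1a and immediate early genes.

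The promoters of the genes that carry the main result are shown first. The heat shock element, the binding motif of Hsf1, is built of short units that face each other, and it was searched on both strands as GAANNTTC or TTCNNGAA in the 250 bases before each RefSeq gene start (build GRCm38.p6), a table that matched 39 of the 46 genes and did not hold Hspa8, Hspb2, Hsp90aa1, Hsf1, Hspa13, Hsp90ab1 and Hspa9. Capitals mark the motif, each sequence reads 5′ to 3′ on the strand of the gene, and each lies before a RefSeq start of that gene. The Hsph1 and Hspa5 stretches lie inside the spans that GENCODE M21 gives those genes. The whole window of Hspa1a is given because its gene had the most UMIs of the members past 1.5-fold in macrophage/monocyte-like or FAP-like cells, and shorter stretches are given for the others. They are chr17:34972157-34972406 (minus strand) for Hspa1a, chr5:135887789-135887848 (plus) for Hspb1, chr5:149636336-149636375 (minus) for Hsph1 and chr1:55088038-55088087 (plus) for Hspe1. The last lies between Hspd1 and Hspe1, which are read in opposite directions from a common promoter, inside the span that GENCODE M21 gives Hspd1, and it is part of the windows of both genes.
Hspa1a: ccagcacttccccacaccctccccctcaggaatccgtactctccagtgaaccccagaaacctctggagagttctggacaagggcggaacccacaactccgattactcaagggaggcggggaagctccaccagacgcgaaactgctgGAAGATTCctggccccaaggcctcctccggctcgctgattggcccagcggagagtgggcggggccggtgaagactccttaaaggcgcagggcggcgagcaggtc
Hspb1: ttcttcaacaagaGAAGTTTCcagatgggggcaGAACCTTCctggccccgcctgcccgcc
Hsph1: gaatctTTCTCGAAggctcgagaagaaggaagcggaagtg
Hspe1: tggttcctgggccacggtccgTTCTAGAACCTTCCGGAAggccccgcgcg

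The element was present in 12 of 39 members with a promoter (30.8%), against 14.5% of 27025 genes with a window of that length. The 12 were Hspa1a, Hspa1b, Hsph1, Dnaja1, Dnaja4, Dnajb4, Dnajb6, Hspd1, Hspe1, Hspb1, Hspb3 and Hspb6. Among 11 of the 13 members listed as heat-inducible it was present in 8 (72.7%). A longer form with 3 alternating units was rarer, in 3 members (7.69%) and 0.514% of all genes, and those 3 were Dnajb6, Hspd1 and Hspe1. The printed Hspe1 stretch holds the longer form, and the overlapping matches there run together. The heat shock element was in none of 4 endoplasmic reticulum chaperones with a window.

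A second motif, the endoplasmic reticulum stress element (CCAAT, a spacer of 9 bases and CCACG, on either strand), was in Hspa5 and Hsp90b1 and in no other member, against 0.13% of all genes. Its match in Hspa5 is printed from chr2:34772010-34772059 (plus strand) with the motif and its spacer in capitals. Of 4 endoplasmic reticulum chaperones with a window 2 held it, and Dnajb9 and Dnajb11 held neither motif, so the printed promoter does not stand for the group. A match describes letters in a window and is not evidence that a factor bound there.
Hspa5: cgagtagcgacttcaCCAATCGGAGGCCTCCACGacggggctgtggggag

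Hspa1a (chr17:34969190-34972156) and Hspa1b (chr17:34956436-34959238) are neighbouring copies that encode nearly the same stress-inducible HSP70. Their 250-base promoters differed at 3 positions, C44T, T47C and T249G, with the Hspa1a base first and positions counted from 1 at the base farthest from the start. Over the longest Hspa1a transcript (2967 bases), 49.1% of windows of 91 bases also occurred in Hspa1b, but none did in the last 500 bases and 5.93% did in the last 1000. Which end of the transcript the reads cover is not stated in the sources used here, so how cleanly reads were split between both genes is uncertain. Hspa1a also overlaps Gm20481 on the opposite strand, and Hspd1 and Hspe1 overlap each other.

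The 31780 kept cells were assigned to classes from marker genes, with the chaperone genes left out of the clustering. The 8 classes compared had at least 100 cells in each library, and they are called macrophage/monocyte-like (6317, 6103 and 6923 cells in young PBS, old PBS and old rMETRNL, an order kept throughout), FAP-like (fibro/adipogenic progenitor-like, 1710, 1467 and 1842), endothelial-like, dendritic-like, MuSC/myoblast-like (muscle stem cell or myoblast), myocyte-like, tenocyte-like and T/NK-like. Total UMIs were 218059089, 179295668 and 228966697, and the median depth of a kept cell was 15101, 13724 and 14520.5 UMIs. Endothelial-like cells were shallower in old PBS, with medians of 11000, 3721 and 6801 UMIs, and 3 pairs of libraries shared 58 to 80 cell barcodes. Fewer transcripts per cell and fewer cells transcribing a gene are not told apart by a class sum.

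The myocyte-like class was not the same cells in each library. Its cluster 11, led by fibre genes such as Ckm and Pvalb, held 34, 434 and 128 cells, and its cluster 19, led by Myog and Myh3, held 82, 24 and 49. Sums over this class therefore mix different cells in each library, and its small heat shock proteins are also given by cluster. The largest macrophage/monocyte-like cluster differed by library (cluster 1 for young PBS, cluster 0 for old PBS, cluster 2 for old rMETRNL), so the Hspa1a and Hspa1b ratios are also given with clusters weighted alike in every library.

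Most members were present in every class, and a few were nearly restricted to 1 class. Members are compared between classes one gene at a time, since levels of different genes were not set against each other. Hspa8, the constitutive cytosolic HSP70, ranged from 2287 CPM in tenocyte-like to 4709 CPM in dendritic-like cells, and Hsp90ab1, the constitutive HSP90, reached 4914 CPM in MuSC/myoblast-like cells. Hspa1a, summed over libraries, was at 2430 CPM in endothelial-like and 2375 CPM in dendritic-like cells, of which dendritic-like cells were the higher in young PBS and old rMETRNL and endothelial-like cells in old PBS. Hspa1b was at 1517 CPM in dendritic-like and 1304 CPM in endothelial-like cells, with the same turn in old PBS. The mitochondrial pair was highest in MuSC/myoblast-like cells, with Hspd1 at 1065 CPM and Hspe1 at 945.7 CPM. Bag3, which links HSP70 and small heat shock proteins to autophagy, was highest in FAP-like cells at 319.5 CPM, and Hsf1 was highest in MuSC/myoblast-like cells at 27.2 CPM.

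**Figure D1:**
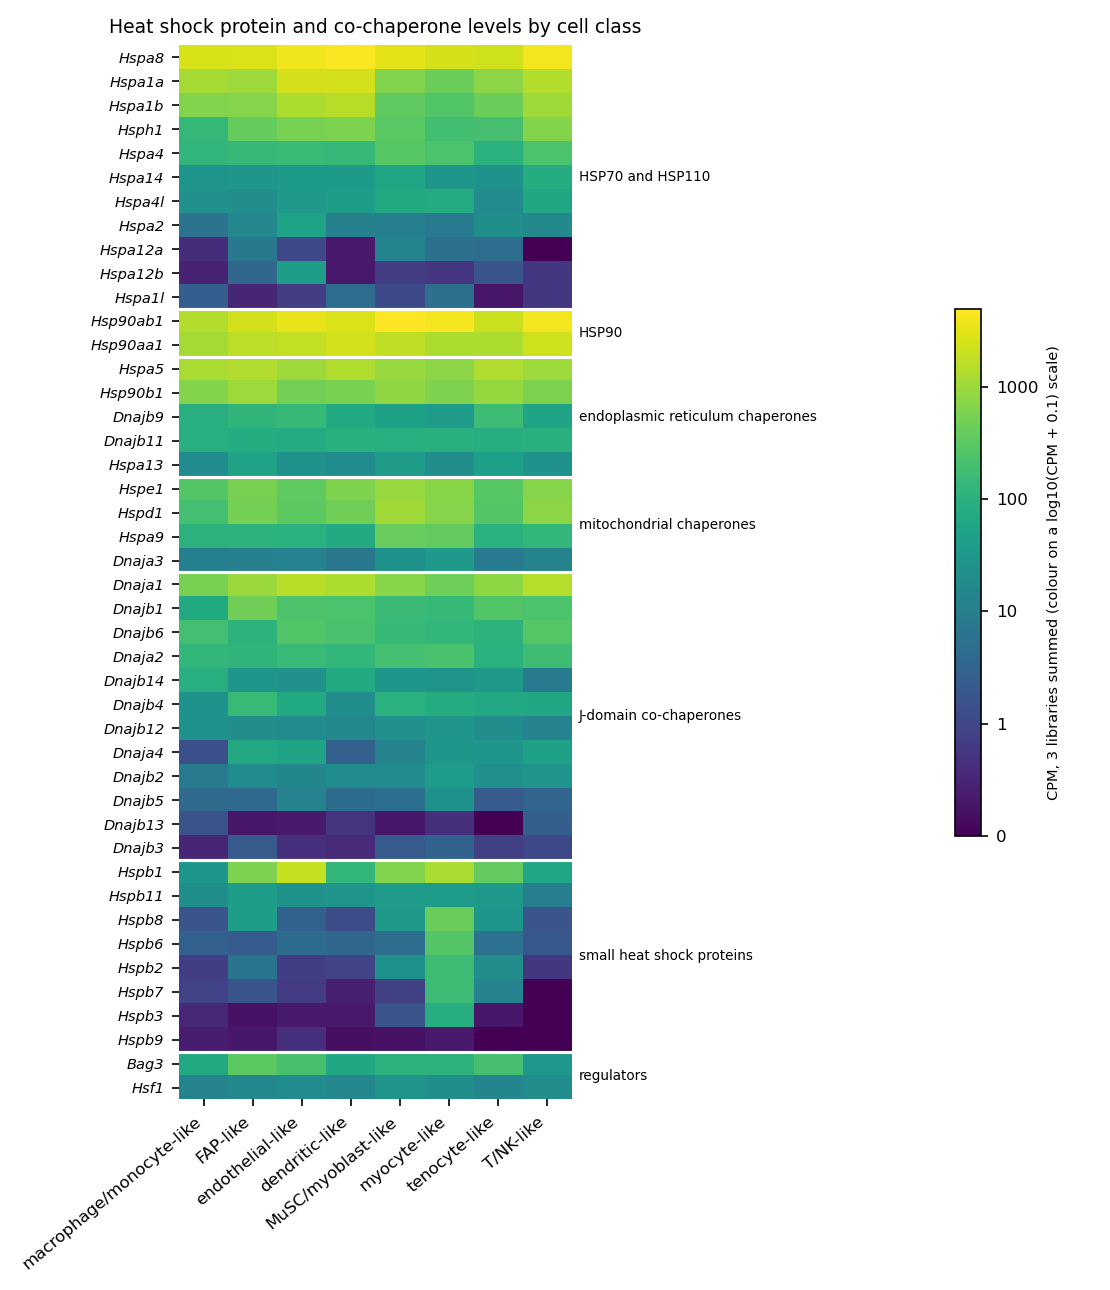
Level of each of the 44 described members (rows, grouped by role) in the 8 cell classes (columns), with the 3 libraries summed and colour showing CPM on a log scale. Hspb2, Hspb3, Hspb6, Hspb7 and Hspb8 are bright in the myocyte-like column and Hspa12b in the endothelial-like column, while Hspa8 is bright in all 8.

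Of the 8 small heat shock proteins, 5 were highest in the myocyte-like class, while Hspb1 was highest in endothelial-like and Hspb11 in FAP-like cells, and Hspb9 had too few UMIs (72 in all) to be ranked. Hspb3, which is found in skeletal muscle and heart, was at 85.34 CPM in the myocyte-like class, 765.7 times the median of its 8 class levels. That median was 0.1114 CPM and that of Hspb7 was 0.7595 CPM, both below about 1 CPM, so the multiples of these 2 genes are uncertain. Hspb7, known for holding the fibre's filaments in order, was at 166.9 CPM (219.7 times its median), Hspb6 at 272.1 (69.7 times), Hspb2 at 163.9 (44.3 times) and Hspb8, the partner of Bag3, at 409.4 (25.5 times). Hspb2 overlaps Cryab on the opposite strand and Hspb6 overlaps other genes, and use of strand in the counting is not stated, so part of their counts may belong to neighbours.

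Within that class the small heat shock proteins split by cluster. Hspb6 was at 1236, 1034 and 1418 CPM in the fibre-gene cluster 11 and at 5.93, 6.54 and 3.85 CPM in the Myog cluster 19. Hspb7 followed the same split, with 650.2, 601.6 and 756.5 CPM in cluster 11 and 18.1, 16.8 and 25.98 CPM in cluster 19. Hspb3 did not, at 85.7, 119.7 and 93.2 CPM in cluster 11 and 80.1, 60.8 and 80.3 CPM in cluster 19, nor did Hspb2, at 192.9, 154.9 and 154.5 CPM against 183.4, 183.2 and 127.5 CPM. Hspb8 was at 421.6, 657.5 and 354.4 CPM in cluster 11 and 355.5, 283.3 and 397.4 CPM in cluster 19. In all 3 libraries Hspb6 and Hspb7 were thus fibre-cluster transcripts, and Hspb2 and Hspb3 were present in both.

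Other members whose highest class level was at least 5 times the median of their class levels were Hspa12b, Dnajb5, Hspa1l and Dnajb13. For Hspa12b, Hspa1l and Dnajb13 the second-highest class was past 5 times that median too. Summed over libraries, it was FAP-like for Hspa12b, at 3.397 CPM against a median of 0.5339. For Hspa1l it was dendritic-like, at 4.748 CPM beside 5.355 in myocyte-like cells. For Dnajb13 it was macrophage/monocyte-like, at 1.498 CPM. Hspa12b, an HSP70 relative known from blood vessels, was at 48.7, 37.2 and 36.9 CPM in endothelial-like cells, and with every cell thinned to 2000 UMIs 8.79%, 8.47% and 7.87% of those cells had a UMI, against 0.0323%, 0.0340% and 0.0743% of macrophage/monocyte-like cells. Before thinning these shares were 36.0%, 19.8% and 25.9% against 0.269%, 0.262% and 0.332%. Dnajb5 was at 57.2, 42.6 and 54.5 CPM in the fibre-gene cluster 11, from 8, 64 and 24 UMIs, and at 19.8, 16.8 and 21.2 CPM in cluster 19. Hspa1l, a germ-cell HSP70 next to Hspa1a on chromosome 17, was at 28.6, 14.6 and 20.5 CPM in cluster 11, from 4, 22 and 9 UMIs. Dnajb13, which belongs to motile cilia and sperm, was at 2.94, 1.21 and 4.43 CPM in T/NK-like cells, from 5, 2 and 4 UMIs, and overlaps Ucp2 on the opposite strand, so this level is uncertain.

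Hspb1, the most widely used small heat shock protein, was at 1585, 1797 and 2324 CPM in endothelial-like cells, and in macrophage/monocyte-like cells at 30.1, 18.3 and 37.7 CPM. With every cell thinned to 2000 UMIs, 75%, 83.2% and 85.9% of endothelial-like cells and 3.89%, 3.47% and 4.72% of macrophage/monocyte-like cells had a Hspb1 UMI, and 15.7%, 16.6% and 21.5% of the latter did before thinning. The part of free RNA from other cells in the macrophage/monocyte-like share was not tested.

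In macrophage/monocyte-like cells, the stress-inducible HSP70 genes were lower in old PBS than in either other library. For Hspa1a the 3 levels were 1387, 666.4 and 1396 CPM, from 137430, 65996 and 157711 UMIs. Old PBS was 0.481 of young PBS (0.476 to 0.485) and old rMETRNL was 2.10 times old PBS (2.08 to 2.11). Hspa1b was at 780.1, 413.7 and 735.2 CPM, with ratios of 0.530 and 1.78. The young PBS and old rMETRNL libraries lay close together, and old PBS stood below both. With the clusters weighted alike in each library the Hspa1a ratios were 0.588 and 1.88 and the Hspa1b ratios were 0.637 and 1.59.

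Past 1.5-fold, 4 of 43 members tested in this class were lower in old PBS than in young PBS and 0 were higher, beside 6.64% of 14383 genes lower and 6.78% higher (13.4% in either direction). The 4 were Hspa1a, Hspa1b, Hspa1l and Hspb1, whose ratio was 0.608. With the mean of per-cell CPM 2 were higher and 3 lower, Hspb1 being at 0.694, beside 16.4% of genes in either direction. In cells with no fibre or haemoglobin UMI 37 members were tested. Of these 1 was higher and 4 lower, beside 13.2% of genes in either direction. Hspa1l lost its call in 3 of 11 alternative settings for old PBS over young PBS and in 2 of 11 for old rMETRNL over old PBS. Past 1.5-fold in old rMETRNL over old PBS, 7 members were higher and 1 lower, beside 6.01% of genes higher and 3.85% lower (9.87% in either direction). Those higher were Hspa1a, Hspa1b, Hspa1l, Hsph1, Hspb1, Hspb7 and Hspa12a, and Hspb3 was lower. Hspb7, at a ratio of 1.501, lost this call in 7 of 11 alternative settings and was below 1 in 2 of them (0.929 and 0.463). Hspa12a lost it in 4, and Hspb3 was above 1 with single-marker gates (1.23). Over all 43 the median log2 ratio was 0.08 for old PBS over young PBS, against 0.00 over all genes, and 0.10 for old rMETRNL over old PBS, against 0.05.

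Hsph1, the HSP110 exchange factor, was at 135.9, 103.2 and 160.6 CPM in these cells, with ratios of 0.760 (0.740 to 0.780) and 1.56 (1.52 to 1.59). Hspa1l was at 2.81, 1.78 and 2.75 CPM, from 278, 176 and 311 UMIs. Hspb7, Hspb3 and Hspa12a were each at or below 1 CPM in every library, from 66, 66 and 113 UMIs for Hspb7, 26, 33 and 20 for Hspb3 and 30, 24 and 42 for Hspa12a. The interval of the Hspa12a ratio of 1.53 ran from 0.908 to 2.65, so it was not larger than counting error. Beside Hspb3 and Hspb7, which were at their highest in myocyte-like cells, 10 fibre transcripts summed to 55.6, 146.4 and 75.9 CPM in macrophage/monocyte-like cells, none of the 10 at 0.

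The other cytosolic members of these cells moved less. Hspa8 was at 2696, 2469 and 2640 CPM, with ratios of 0.916 and 1.07. Hsp90aa1, the inducible HSP90, was at 1164, 975.1 and 1278 CPM (0.838 and 1.31), and Hsp90ab1 was at 1409, 1254 and 1515 CPM (0.890 and 1.21). Dnaja1, a J-domain partner of Hspa8, was at 511.3, 496.1 and 585.6 CPM (0.970 and 1.18). All 4 had their lowest value in old PBS and none was past 1.5-fold. Of 11 HSP70 and HSP110 members, 2 had a ratio above 1 for old PBS over young PBS (median log2 -0.27) and 9 for old rMETRNL over old PBS (median log2 0.44).

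Endoplasmic reticulum chaperones ran the other way in macrophage/monocyte-like cells. Hspa5, the HSP70 of that compartment, was at 1090, 1427 and 1248 CPM. Its ratio was 1.31 (1.299 to 1.32) for old PBS over young PBS and 0.875 (0.868 to 0.881) for old rMETRNL over old PBS. Hsp90b1, its HSP90, was at 613.6, 686.6 and 673.8 CPM, with ratios of 1.12 and 0.981. All 5 of the group were above 1 for old PBS over young PBS, with a median log2 ratio of 0.22, and 1 of 5 was above 1 for old rMETRNL over old PBS, with a median of -0.12. None of the 5 was past 1.5-fold in either comparison. Dnajb9, a J-domain protein of the same compartment that was singled out after its values were seen, was at 76.6, 104.9 and 81.2 CPM.

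The mitochondrial pair was lowest in old PBS too. Hspe1 was at 291.9, 220.1 and 295.1 CPM (ratios 0.754 and 1.34) and Hspd1 at 188.7, 167.9 and 219 CPM (0.890 and 1.304). The regulators moved little: Hsf1 was at 12.1, 12.9 and 11.6 CPM and Bag3 at 63.9, 74.9 and 71.0 CPM. Of 12 J-domain members, 9 were above 1 for old PBS over young PBS and 6 for old rMETRNL over old PBS, and none was past 1.5-fold in either. The log2 ratios of those 12 ran from -0.20 to 0.48 and from -0.52 to 0.49. Of the 44 members Hspb9 alone, with 44 UMIs in these cells, was not tested.

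**Figure D2:**
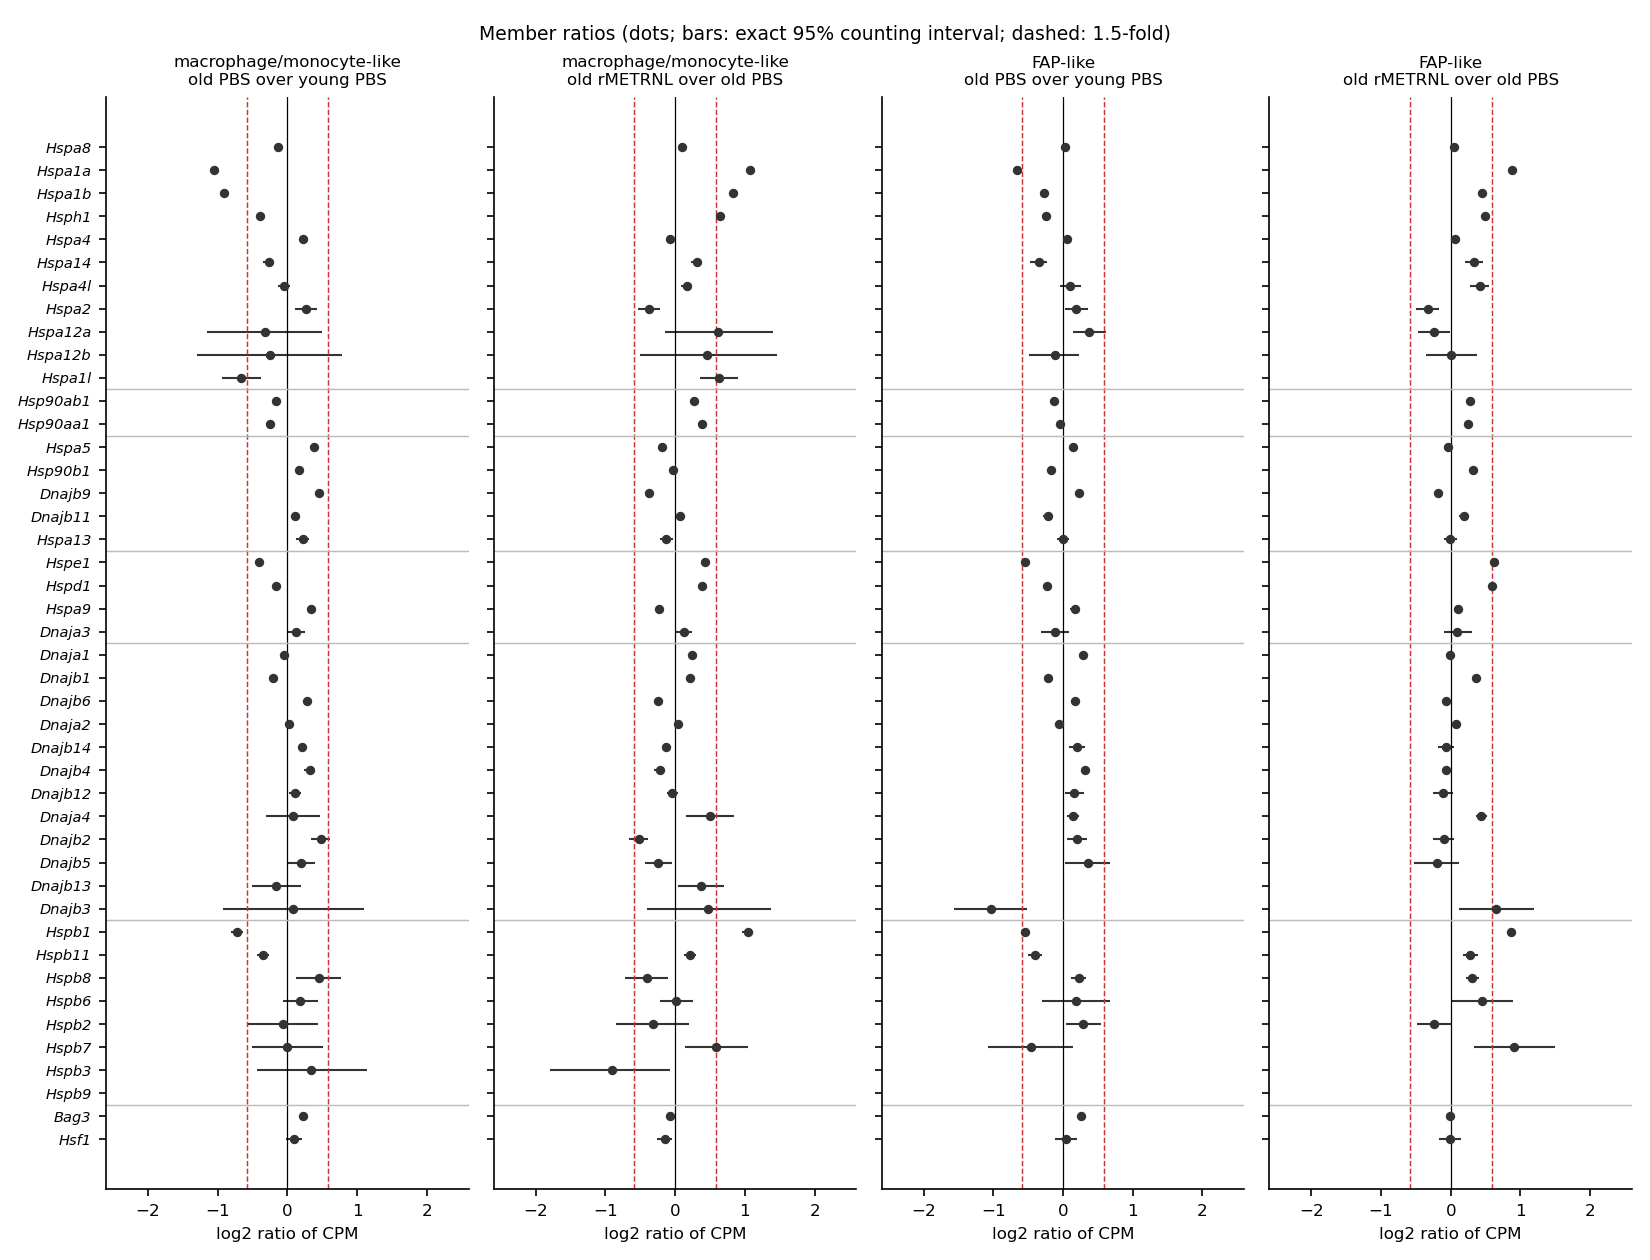
Log2 ratio of CPM (horizontal axis) for each member that passed 50 UMIs, by role from top to bottom, in macrophage/monocyte-like and FAP-like cells, for old PBS over young PBS and old rMETRNL over old PBS, where dots are ratios, bars are exact 95% counting intervals and dashed lines mark 1.5-fold. Hspa1a lies beyond the dashed line in all 4 panels, to the left in the first comparison and to the right in the second, while Hspa8 and Hsf1 lie near 0.

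In FAP-like cells, the mesenchymal cells that lay down matrix, Hspa1a showed the same order of libraries. Its levels were 1027, 652.9 and 1202 CPM. The first ratio was 0.636 (0.625 to 0.646) and the second 1.84 (1.81 to 1.87). With clusters weighted alike these were 0.645 and 1.91. Hspa1b was at 678.1, 562.3 and 768.4 CPM, with ratios of 0.829 and 1.37. Both genes, summed over the class, were lowest in old PBS, and only Hspa1a was past 1.5-fold. In cluster 9 of this class, led by Pi16, Hspa1b went the other way for old PBS over young PBS, at a ratio of 1.645. Over all classes, Hspa1b was below 1 in 18 of 22 clusters for that comparison.

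Of 40 members tested in FAP-like cells, 2 were past 1.5-fold lower in old PBS than in young PBS and 0 higher, beside 6.17% of 14428 genes lower and 7.83% higher (14.0% in either direction). They were Hspa1a and Dnajb3. Past 1.5-fold in old rMETRNL over old PBS, 6 were higher and 0 lower, beside 4.23% of genes higher and 4.91% lower (9.14% in either direction). The 6 were Hspa1a, Hspb1, Hspb7, Hspd1, Hspe1 and Dnajb3. Hspd1, at a ratio of 1.504, was not past 1.5-fold in 6 of 11 alternative settings, down to 1.45 with doublet calls kept. Dnajb3 lost its call in 5, with a ratio of 0.626 in cells with no fibre or haemoglobin UMI. The median log2 ratio over the 40 was 0.04 for old PBS over young PBS, against -0.03 over all genes, and 0.10 for old rMETRNL over old PBS, against 0.01.

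Hspb1 was at 586.7, 400.4 and 731.6 CPM in FAP-like cells, with ratios of 0.682 (0.668 to 0.697) and 1.83 (1.79 to 1.86). The mitochondrial pair, summed over the class, had its lowest value in old PBS. Hspe1 was at 559.2, 382.8 and 590.0 CPM (0.684 and 1.54) and Hspd1 at 491.1, 419.2 and 630.4 CPM (0.854 and 1.504). In the Pi16 cluster 9 the Hspd1 ratios were 1.658 and 0.8017, and the second Hspe1 ratio was 0.9735. Over all classes the second ratio was above 1 in 21 of 22 clusters for each gene. Hsph1 was at 374.5, 315.1 and 443.5 CPM (0.841 and 1.41). Of 13 members listed as heat-inducible, 8 were lowest in old PBS in both FAP-like and macrophage/monocyte-like cells. These were Hspa1a, Hspa1b, Hsph1, Hsp90aa1, Hspd1, Hspe1, Dnajb1 and Hspb1. The share of all genes that met this condition is not given here, so the count has no background beside it. The list was also chosen with earlier results of these data known. Dnajb3 was at 2.66, 1.31 and 2.05 CPM from 126, 43 and 96 UMIs and lies within the Ugt1a genes, and Hspb7 was at 1.5, 1.09 and 2.05 CPM.

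The other 5, Bag3, Dnaja1, Hspa8, Dnajb4 and Hspb8, were not lowest in old PBS in both. Bag3 was at 285.8, 340.8 and 338.5 CPM in FAP-like cells, with ratios of 1.19 (1.16 to 1.22) and 0.993 (0.970 to 1.02), and Dnaja1 was at 844.3, 1032 and 1028 CPM. Hsf1 was at 16.0, 16.6 and 16.4 CPM. Hspa8 was at 2649, 2699 and 2801 CPM, Hsp90aa1 at 1629, 1585 and 1879 CPM and Hsp90ab1 at 2345, 2138 and 2596 CPM. Hspa5 was at 1303, 1447 and 1410 CPM (1.11 and 0.975), whereas Hsp90b1 was at 1021, 902.3 and 1124 CPM (0.884 and 1.245), so that 3 of the 5 endoplasmic reticulum chaperones had a ratio above 1 for old PBS over young PBS and 2 of 5 for old rMETRNL over old PBS. The 11 J-domain members ran from -1.02 to 0.35 and from -0.20 to 0.64 on the log2 scale. Dnajb13, Hspb9, Hspb3 and Hspa1l had 13, 13, 9 and 28 UMIs in FAP-like cells and were not tested there. Hspa4, Hspa4l, Dnaja2, Dnaja3, Dnajb11 and Dnajb12, not given with values here, were past 1.5-fold in neither class and neither comparison.

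**Figure D3:**
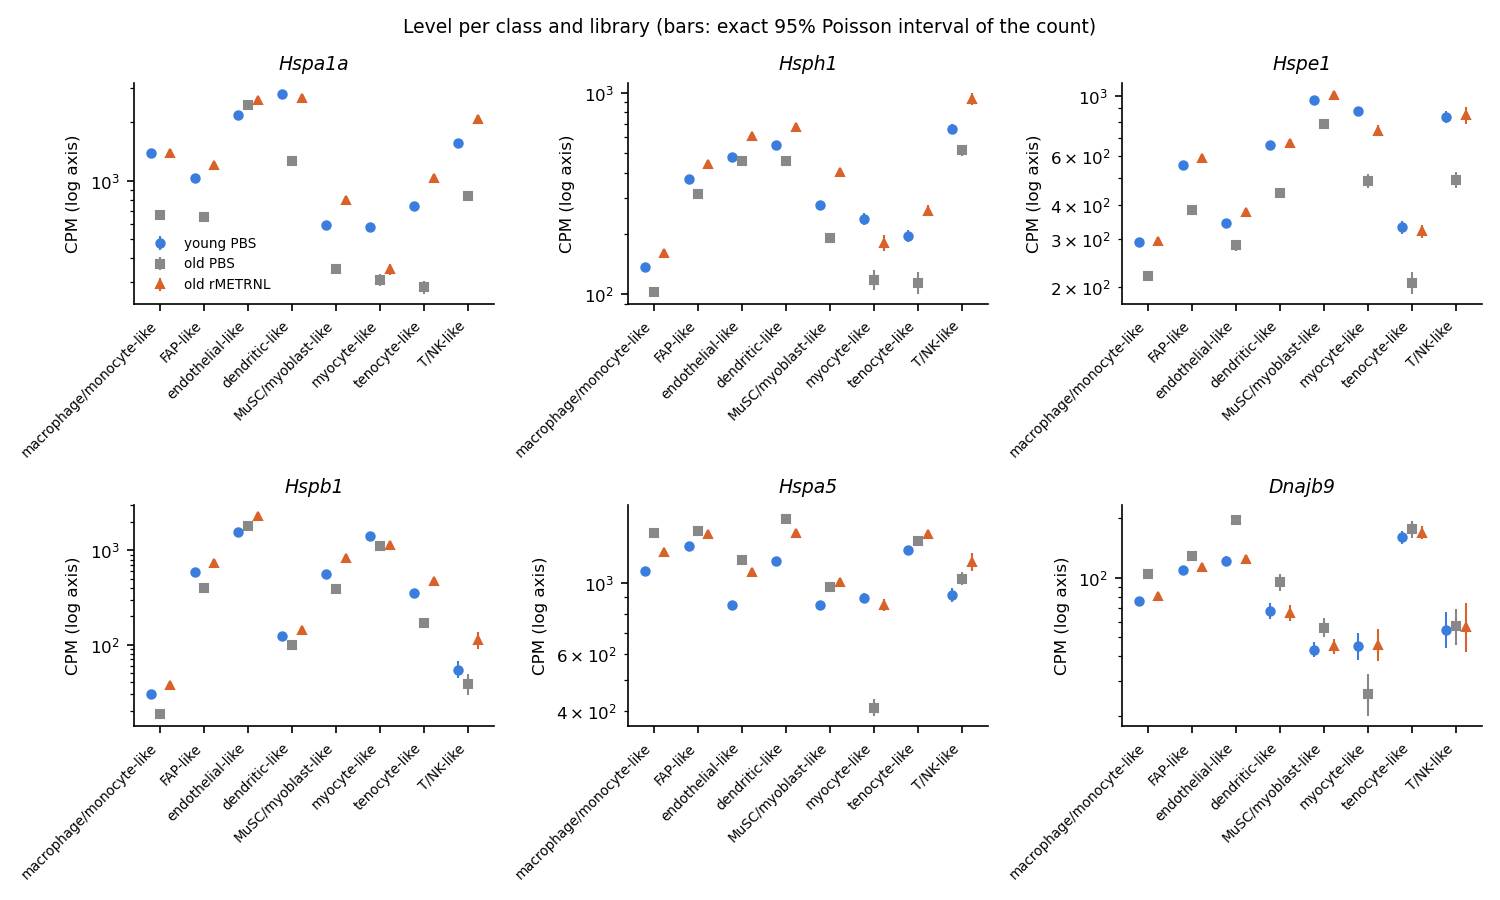
CPM on a log axis for Hspa1a, Hsph1, Hspe1, Hspb1, Hspa5 and Dnajb9 in the 8 classes, with 1 point per library and bars for the exact 95% Poisson interval of the count. Old PBS is the lowest point for Hspe1 in all 8 classes, for Hspa1a in 7 of 8, and the highest for Dnajb9 in 7 of 8.

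Hspa1a was lowest in old PBS in every class except endothelial-like cells, while the order of young PBS and old rMETRNL varied. For old PBS over young PBS it was below 1 in 7 of 8 classes, past 1.5-fold in all 7, from 0.383 in tenocyte-like to 0.636 in FAP-like cells, and it was 1.12 (1.10 to 1.14) in endothelial-like cells. For old rMETRNL over old PBS it was above 1 in all 8 classes and past 1.5-fold in 6, with endothelial-like cells lowest at 1.07 and tenocyte-like cells highest at 3.66. In CPM it was 2790, 1261 and 2665 in dendritic-like, 589.5, 348.9 and 796.8 in MuSC/myoblast-like, 736.8, 281.8 and 1032 in tenocyte-like and 1570, 829.2 and 2073 in T/NK-like cells. In endothelial-like cells it was 2193, 2457 and 2620. The myocyte-like class, which is among the 7, was at 579.2, 306.9 and 348.6 CPM, but its cluster 19 was not lowest in old PBS.

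By cluster, Hspa1a was below 1 for old PBS over young PBS in 18 of 22 clusters with at least 20 cells in each library, 16 of them past 1.5-fold, and above 1 for old rMETRNL over old PBS in 18 of 22. All 6 macrophage/monocyte-like clusters among the 22 were lowest in old PBS. Among them the cycling cluster 7, led by Cdca3 and Birc5, was at 383.8, 119.8 and 383.0 CPM, and cluster 4, led by F13a1 and Ccl8, was at 1898, 1593 and 2267 CPM. The lower level in old PBS was thus present in cycling and non-cycling clusters alike, over a 0.312 to 0.839 range of ratios.

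The 4 clusters at or above young PBS were the capillary-like endothelial cluster 6, the Pi16 cluster 9 of FAP-like cells, the pericyte-like cluster 16 and the Myog cluster 19. Hspa1a was at 2462, 3086 and 2867 CPM in cluster 6, led by Gpihbp1, but at 1248, 415.7 and 1554 CPM in the other endothelial-like cluster 14, led by Selp and Ackr1. In the Pi16 cluster 9 it was at 551.2, 633.3 and 619.1 CPM, and in the FAP-like clusters 3 and 13 at 1097, 682.8 and 1405 CPM and at 1058, 422.4 and 1057 CPM. In cluster 16 it was at 2096, 3464 and 4561 CPM, and in cluster 19 at 592.7, 624.5 and 395.5 CPM. The order of libraries therefore differed between clusters of a class as well as between classes, and no test of that difference was possible.

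**Figure D4:**
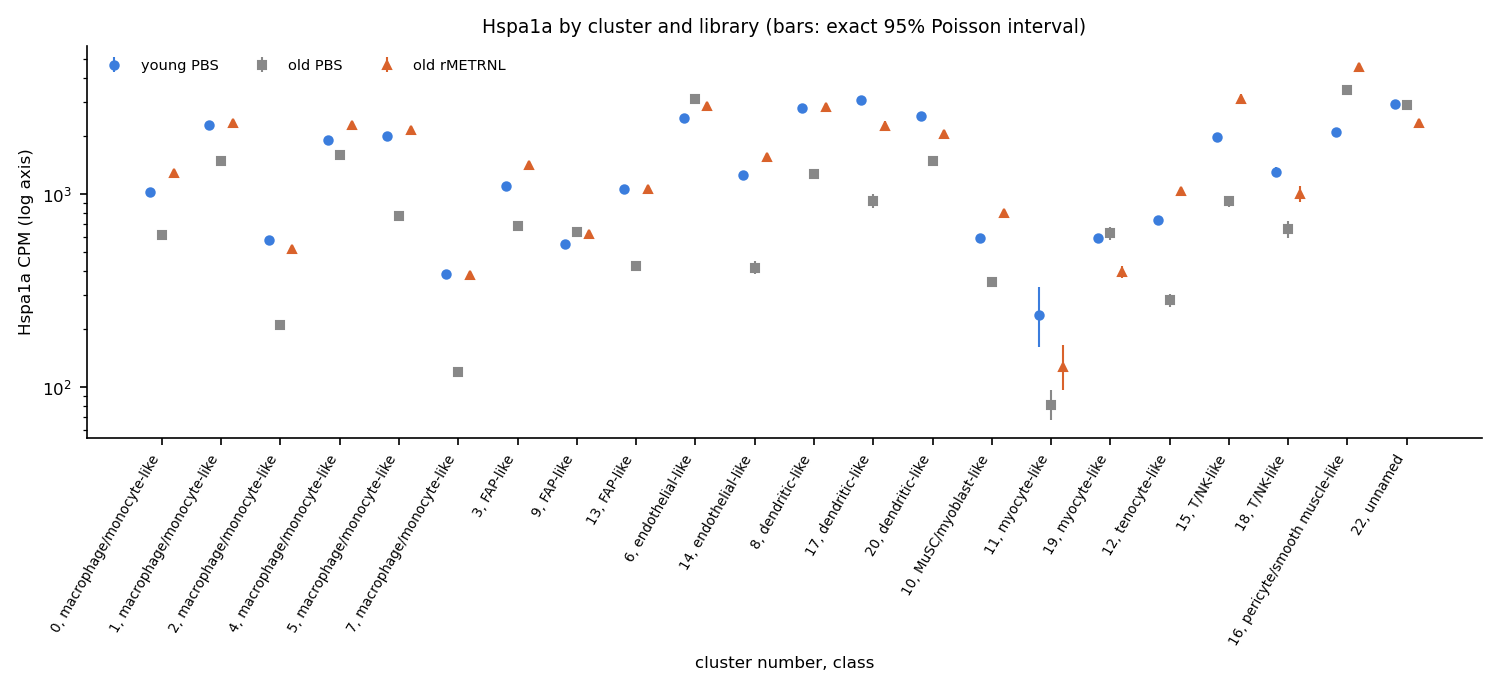
Hspa1a CPM on a log axis in the 22 clusters with at least 20 cells in each library, grouped by class, with 1 point per library and bars for the exact 95% Poisson interval. Old PBS is the lowest point in the 6 macrophage/monocyte-like clusters and lies above young PBS in clusters 6, 9, 16 and 19.

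Among the other members, Hspd1, Hspe1, Hsph1, Hsp90ab1 and Hspa14 were below 1 for old PBS over young PBS and above 1 for old rMETRNL over old PBS in all 8 classes. These 5 were named after their values were seen, and the last is a ribosome-associated HSP70 that shares its strand with an overlapping gene. By cluster the first 4 were below 1 for old PBS over young PBS in 18, 20, 17 and 18 of 22, and Hspa14 in 17 of 20. For old rMETRNL over old PBS they were above 1 in 21, 21, 18 and 20 of 22, and Hspa14 in 19 of 20. The highest ratios for old PBS over young PBS included 2.42 for Hsph1 in cluster 16 and 1.658 for Hspd1 in cluster 9. Hspa1b was below 1 in 7 of 8 classes and above 1 in 7 of 8, endothelial-like cells being the exception in both, at 1189, 1457 and 1315 CPM. Hspb1 was below 1 in 7 of 8 classes, with ratios from 0.491 in tenocyte-like to 1.13 in endothelial-like cells, and above 1 in all 8. Hspb11, also picked after its values were seen, was below 1 for old PBS over young PBS in all 7 classes where it passed, at ratios of 0.549 to 0.872, and in all 19 clusters.

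In the opposite direction, Hspa5 was above 1 for old PBS over young PBS in 7 of 8 classes and 20 of 22 clusters, from 1.07 to 1.38 in the 7 classes. The exception was the myocyte-like class, where the cluster make-up changed, and Hspa5 was at 895.7, 409.9 and 851.6 CPM. Within its clusters the Hspa5 ratio was 1.599 in cluster 11 and 0.873 in cluster 19. Dnajb9 was above 1 in 7 of 8 classes for old PBS over young PBS and below 1 in 7 of 8 for old rMETRNL over old PBS. Outside the myocyte-like class its largest difference was in endothelial-like cells, at 121.7, 195.9 and 124.3 CPM. Hspa2, a testis-rich HSP70 also expressed in other tissues, was picked after its values were seen. For old PBS over young PBS it ran from 1.003 in MuSC/myoblast-like to 2.573 in endothelial-like cells over the 8 classes. By cluster it was above 1 in 15 of 17 and lowest in cluster 13, at 0.765. In endothelial-like cells it was at 34.4, 88.4 and 46.3 CPM.

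Counts past 1.5-fold differed between classes. In MuSC/myoblast-like cells 6 of 38 members were lower in old PBS than in young PBS (4.68% of genes) and 0 were higher (5.53%, or 10.2% in either direction), and 7 were higher in old rMETRNL than in old PBS (4.12%) and 0 lower (5.10%, or 9.22% in either direction). In tenocyte-like cells 9 of 36 were lower and 1 higher (6.91% and 8.91% of genes, 15.8% together), then 9 higher and 1 lower (5.82% and 7.55%, 13.4% together). In T/NK-like cells 5 of 30 were lower and 1 higher (5.85% and 8.61%, 14.5% together), then 8 higher and 0 lower (5.88% and 9.46%, 15.3% together). In dendritic-like cells 4 of 35 were lower and 2 higher (8.65% and 6.15%, 14.8% together), then 4 higher and 0 lower (6.35% and 5.87%, 12.2% together). In MuSC/myoblast-like, tenocyte-like and T/NK-like cells the calls leaned to lower in old PBS and higher in old rMETRNL, whereas the dendritic-like counts for old PBS over young PBS lay near the share of all genes. Dnaja4, a J-domain protein that was picked after its values were seen, was at 32.3, 9.56 and 36.3 CPM in tenocyte-like cells, and Dnajb1, the J-domain partner of the inducible HSP70, at 288.1, 166.2 and 289.7 CPM.

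Endothelial-like cells did not show that lean, and their counts lay near or below the share of all genes in each direction. For old PBS over young PBS 4 of 36 members were higher, Hspa2, Dnajb2, Dnajb9 and Dnajb14, and 1 lower, Hspb8 (9.53% and 8.99% of genes, 18.5% together), and for old rMETRNL over old PBS 0 were higher and 2 lower, Hspa2 and Dnajb9 (7.05% and 6.76%, 13.8% together). Hsp90aa1 was at 1444, 2091 and 1932 CPM and Hspb1, given above, was lowest in young PBS and highest in old rMETRNL. In myocyte-like cells 20 of 38 members were lower and 3 higher for old PBS over young PBS, beside 34.6% and 15.6% of genes (50.1% together), in a class whose clusters differed in size. For old rMETRNL over old PBS 14 were higher and 2 lower there, beside 28.7% and 12.2% of genes (40.9% together).

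The 13 members listed as heat-inducible were Hspa1a, Hspa1b, Hspa8, Hsph1, Hsp90aa1, Hspd1, Hspe1, Dnaja1, Dnajb1, Dnajb4, Hspb1, Hspb8 and Bag3. Their median log2 ratio for old PBS over young PBS was -0.20 in macrophage/monocyte-like, -0.22 in FAP-like, -0.29 in MuSC/myoblast-like and -0.67 in tenocyte-like cells, and 0.16 in endothelial-like cells. For old rMETRNL over old PBS it was 0.38, 0.37, 0.37 and 0.63 in the same order, and 0.09 in endothelial-like cells. In 12 of them that passed in T/NK-like cells the medians were -0.33 and 0.73. All-gene medians lay between -0.04 and 0.05 in these classes. Summed over the 13, macrophage/monocyte-like cells had 7344, 5697 and 7516 CPM and FAP-like cells 9753, 8989 and 11130 CPM.

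How many cells carried Hspa1a was then counted, with each cell thinned to 2000 UMIs. In macrophage/monocyte-like cells, 49.3% (48.1% to 50.6%) of young PBS, 32.6% (31.4% to 33.8%) of old PBS and 50.3% (49.1% to 51.5%) of old rMETRNL cells had a UMI. Without thinning the shares were 76.3%, 64.1% and 80.1%. In FAP-like cells they were 47.5%, 34.0% and 49.5% thinned and 82.2%, 69.7% and 84.2% unthinned. The same order held in dendritic-like (59.2%, 40.2% and 60.9%), MuSC/myoblast-like (36.6%, 24.02% and 42.9%) and T/NK-like cells (45.1%, 21.4% and 50.9%). Endothelial-like cells differed, at 62.9%, 68.2% and 72.1%, with 39, 210 and 188 cells too shallow to be thinned. No class is known to lack Hspa1a, so a background share could not be set, and free RNA may add to all of these.

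**Figure D5:**
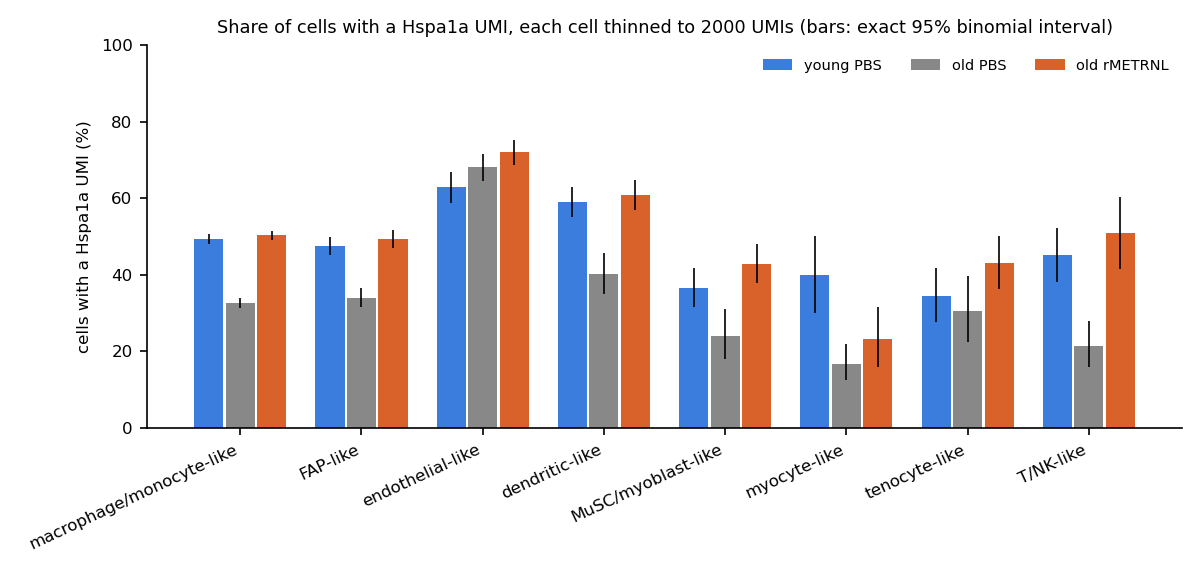
Share of cells with a Hspa1a UMI (percent, axis from 0) in the 8 classes and 3 libraries, each cell thinned to 2000 UMIs, with exact 95% binomial intervals. Old PBS is the lowest bar in every class but endothelial-like, where the bars are 62.9%, 68.2% and 72.1%. The myocyte-like bars compare unlike cells. Median depth in that class was 27889, 2215 and 3154 UMIs, cells under 2000 UMIs were left out, and its cluster make-up differed by library.

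Hspa1a was unevenly spread over cells, and most so in old PBS. The 10% of macrophage/monocyte-like cells with most Hspa1a per UMI held 51.0%, 69.0% and 48.7% of its UMIs. The median cell had 2.52, 0.77 and 2.75 Hspa1a UMIs per 10000, the 90th percentile was 52.8, 25.3 and 56.9 and the 99th percentile 150.3, 129.5 and 160.6. The libraries were thus far apart at the median and closer at the top. For Hspa8 the same 10% held 18.9%, 17.1% and 17.2%.

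FAP-like cells gave the same picture for Hspa1a, with 48.4%, 66.4% and 44.9% of UMIs in the top 10% of cells, medians of 2.15, 0.80 and 2.76 UMIs per 10000 and 99th percentiles of 75.04, 74.98 and 80.2. In endothelial-like cells the top 10% held 32.6%, 37.0% and 23.5%, and the medians were 8.11, 12.2 and 14.4 UMIs per 10000.

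Within cells, Hspa1a and Hspa1b varied together, with Pearson's r over cells between 0.80 and 0.90 in the 9 sets formed by macrophage/monocyte-like, FAP-like and endothelial-like cells of each library. Hsph1 with Hspa1b gave 0.49 to 0.72 and Hspd1 with Hspe1 0.37 to 0.70. Immediate early genes also varied with Hspa1a, at 0.25 to 0.49 for Fos, 0.26 to 0.48 for Jun and 0.24 to 0.51 for Egr1, whereas Actb gave -0.13 to 0.26. Cells of a set share a library and its free RNA, counts were scaled by depth, and reads may be shared between Hspa1a and Hspa1b, so these are descriptions.

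Genes known to respond to tissue digestion were set beside Hspa1a. The 18 immediate early and dissociation genes summed to 7962, 7775 and 7717 CPM in macrophage/monocyte-like cells, with list medians of 0.05 for old PBS over young PBS and -0.08 for old rMETRNL over old PBS on the log2 scale. In these cells Jun was at 766.4, 490.2 and 824.8 CPM and Klf2 at 179.6, 107.8 and 194.5 CPM, in the order of Hspa1a. Egr1 was at 154.6, 217.7 and 206.4 CPM and Klf4 at 148.5, 221.4 and 173.6 CPM, highest in old PBS, as was Fosb (199.2, 244.0 and 165.4 CPM). Ier2 was lowest in old PBS (86.9, 51.1 and 66.4 CPM). Of the 18, 10 were above 1 and 8 below 1 for old PBS over young PBS, so the list did not move in one direction.

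In FAP-like cells the same 18 summed to 11490, 12560 and 11320 CPM and were mostly highest in old PBS, with 14 of 18 above 1 for old PBS over young PBS (median 0.25) and 15 of 18 below 1 for old rMETRNL over old PBS (median -0.17). Klf4 was at 420.6, 727.5 and 509 CPM and Klf2 at 193.1, 286.9 and 204.1 CPM. Jun was at 1549, 1341 and 1367 CPM, Ier3 at 599.9, 505.1 and 559.6 CPM and Atf3 at 314.5, 346.5 and 359.6 CPM. In endothelial-like cells the sum was 11450, 15750 and 12150 CPM. In FAP-like cells the list sum and Hspa1a thus ran in opposite directions between libraries, and the part of digestion in the Hspa1a difference was not tested.

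Fibre transcripts and haemoglobin, which mark muscle fibres and red blood cells, also differed between libraries. The 10 fibre transcripts summed to 55.6, 146.4 and 75.9 CPM in macrophage/monocyte-like and to 19.4, 83.9 and 43.6 CPM in FAP-like cells, with Myh4 at 0.565, 5.45 and 1.79 CPM, Pvalb at 0.444, 5.39 and 1.87 CPM, Acta1 at 22.5, 52.2 and 26.3 CPM and Eno3 at 8.19, 11.01 and 9.36 CPM in the former. The 4 haemoglobin genes summed to 271.4, 28.9 and 136.4 CPM and to 12.2, 18.9 and 42.4 CPM. In cells with no UMI of either list (2840, 945 and 2170 macrophage/monocyte-like and 808, 256 and 666 FAP-like cells) the Hspa1a ratios were 0.451 and 2.27 in macrophage/monocyte-like and 0.628 and 1.83 in FAP-like cells. The Hspa1a difference was therefore present in cells with no UMI of either list.

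Chaperone genes outside the rule were followed in 4 further lists. The 8 subunits of the cytosolic chaperonin, which folds actin and tubulin, were all below 1 for old PBS over young PBS (median log2 -0.19) and all above 1 for old rMETRNL over old PBS (0.28) in FAP-like cells, Cct3 being at 122.1, 99.1 and 130.7 CPM and Cct2 at 172.3, 141.0 and 171.0 CPM, against medians of 0.00 and 0.06 in macrophage/monocyte-like cells. None of the 8 was past 1.5-fold. Of 25 other cytosolic partners, 6 were above 1 in FAP-like cells for the first ratio and 22 for the second, with medians of -0.08 and 0.17, and the macrophage/monocyte-like medians were 0.02 and 0.10. Ahsa1, which activates HSP90, was at 62.1, 49.7 and 66.8 CPM in macrophage/monocyte-like cells, and Fkbp4, an HSP90 co-chaperone of steroid receptors, was at 55.0, 39.8 and 53.9 CPM in FAP-like cells. Cryab, a small heat shock protein of muscle outside the rule, was at 6.93, 8.76 and 5.43 CPM in macrophage/monocyte-like cells and the only partner past 1.5-fold there. In FAP-like cells Bag2, a co-chaperone of HSP70, at 10.6, 6.81 and 8.46 CPM, and Unc45b, a myosin chaperone, at 0.930, 1.46 and 1.41 CPM, were past 1.5-fold for old PBS over young PBS.

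Of 17 endoplasmic reticulum stress genes tested, 16 were above 1 for old PBS over young PBS in macrophage/monocyte-like cells, with a median log2 ratio of 0.12 and none past 1.5-fold, and 7 were above 1 for old rMETRNL over old PBS, with a median of -0.02. Atf4, the factor of the integrated stress response, was at 190.8, 251.2 and 196.8 CPM and Hyou1, an HSP110 of that compartment, at 25.7, 34.3 and 30.1 CPM. In FAP-like cells 7 of 17 were above 1 for old PBS over young PBS and 12 for old rMETRNL over old PBS, with medians of -0.19 and 0.21. The highest ratio for old PBS over young PBS there was that of Atf4, at 196.6, 252.3 and 211.6 CPM, and the lowest that of Sdf2l1, a cofactor of Hspa5, at 19.8, 13.0 and 20.5 CPM. Past 1.5-fold there were Sdf2l1, lower for old PBS over young PBS (0.659) and higher for old rMETRNL over old PBS (1.573), and Trib3, a low gene at 1.01, 0.821 and 1.34 CPM, higher for the latter (1.635). Of 7 genes of mitochondrial protein quality control, 2 were above 1 in macrophage/monocyte-like and 0 in FAP-like cells for old PBS over young PBS, with medians of -0.13 and -0.24, and 6 and 7 were for old rMETRNL over old PBS, with medians of 0.15 and 0.17. Grpel1, the exchange factor of the mitochondrial HSP70, was at 60.4, 44.5 and 57.0 CPM in FAP-like cells.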

How the data were processed

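Single-cell libraries of injured mouse muscle were deposited as unnormalised UMI counts, which the authors made with Cell Ranger. The submitters' processing notes name versions 5.0.0 and 3.1.0 and build mm10, the file headers name 5.0.0, and the study's methods name another version. Each group was 1 library, pooled from 3 muscle samples, so nothing was tested. Total depth was 179295668 to 228966697 UMIs per library.

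Barcodes were kept from 500 genes upwards if fewer than 10% of UMIs were mitochondrial, and doublets called by Scrublet at a preset rate of 0.8% per 1000 barcodes were removed (1125, 1072 and 1408 calls; the automatic threshold called 1, 0 and 0). Cells were clustered without integration on 2000 variable genes with the 46 members left out, 30 principal components, 20 neighbours and Leiden resolution 0.8. A cluster was named by a marker list of which 3 or more genes and a share of 33.3% were seen, where its leading genes did not go against the name and the marker score passed 0.5. This naming rule was revised after the cluster tables were seen. UMIs were summed per class and library, and CPM, ratios and log2 ratios (0.5 added to each count) were computed for genes with at least 50 UMIs in the class. Intervals are exact Poisson, conditional or binomial at 95% and cover counting error only. No column of another sample was used (0 columns).

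Values by library are printed for members past 1.5-fold in macrophage/monocyte-like or FAP-like cells, the 12 with most UMIs, Hsf1 and Bag3. They are also printed for members whose highest class level was at least 5 times the median of their class levels. From the other lists they are printed for some of the genes with the 2 highest or 2 lowest ratios, picked after their values were seen. Members and lists were chosen with earlier results of these data known, and Dnajb9, Hspa2, Hspa14, Hspb11, Dnaja4 and Dnajb1 were named after their values were seen. Genes were matched to GENCODE M21 by identifier (32158 of 32285), and promoters are from RefSeq. The statistics were tested on simulated data. Alternatives covered cell filters, doublets, resolution, clustered genes, scaling, cell weights, low-count filters, fold, thinning, class definition and motif, and 2 were added after the data were seen. Python 3.11.15, numpy 2.4.6, pandas 2.3.3, scipy 1.17.1, scikit-learn 1.9.0, scanpy 1.11.5, igraph 0.11.9 and matplotlib 3.10.9 were used.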

Additional observations from a re-analysis of the deposited data

Results flagged for a closer look

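Endothelial-like cells differed in direction from macrophage/monocyte-like cells for 3 members. For old PBS over young PBS, the ratio was 1.12 against 0.481 for Hspa1a, 1.23 against 0.530 for Hspa1b and 1.13 against 0.608 for Hspb1. For Hspa1a this held in the endothelial-like cluster 6, led by Gpihbp1, and not in cluster 14, led by Selp. Cluster 14 was lowest in old PBS, with old rMETRNL at 3.738 times old PBS. For old rMETRNL over old PBS, Hspa1b was at 0.902 against 1.78. Hspa12a was at 0.847 in FAP-like cells against 1.53 in macrophage/monocyte-like cells for the same comparison, and that 1.53 was not larger than counting error. With 1 library per group none of these differences was tested. Median depth of endothelial-like cells was 11000, 3721 and 6801 UMIs, and its part in these values was not tested.

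Barcodes left out for having under 500 genes also carried Hspa1a, at 961.3 CPM in old rMETRNL, above 382.1 CPM in old PBS, with 636.4 CPM in young PBS. These barcodes can hold free RNA or damaged cells, which cannot be told apart here.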

How the results depend on the processing

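The Hspa1a ratios kept their direction and stayed past 1.5-fold under every alternative run, from 0.451 to 0.588 and 1.88 to 2.27 in macrophage/monocyte-like cells and from 0.569 to 0.666 and 1.81 to 1.97 in FAP-like cells. Of 220 values of 20 single ratios under 11 settings, 190 were past 1.5-fold, 2 of these on the opposite side of 1, and 4 in all changed direction, all of low members: Dnajb3 in FAP-like cells for old rMETRNL over old PBS (0.626 in cells with no fibre or haemoglobin UMI), Hspb7 in macrophage/monocyte-like cells (0.929 with the stricter cell filter, 0.463 with single-marker gates) and Hspb3 there (1.23 with single-marker gates). The cause was not tested. With a lower fold threshold (at least 5/4 or at most 4/5) in place of 1.5-fold the 4 counts (macrophage/monocyte-like, then FAP-like, old PBS over young PBS before old rMETRNL over old PBS) were 13, 20, 10 and 14 (beside 32.3%, 27.2%, 34.9% and 26.1% of all genes), and at 2-fold 1, 2, 1 and 0 (4.43%, 2.61%, 4.64% and 2.42%), in place of 4, 8, 2 and 6. In FAP-like cells the first count was 4 with no filter on UMIs (31.5% of all genes). In FAP-like cells with no fibre or haemoglobin UMI, which are fewer, the counts were 4 and 11 (19.1% and 14.9% of all genes), the 11 being 9 higher and 2 lower, and the median log2 ratio was -0.031 in place of 0.037 for old PBS over young PBS and 0.213 in place of 0.101 for old rMETRNL over old PBS. The latter was 0.038 with clustering at resolution 0.4. The macrophage/monocyte-like Hspa1a shares differed by -16.8 and 17.7 percentage points. Without thinning the first was -12.3, and asking for at least 3 UMIs gave -13.8 and 15.4. With 3 units the heat shock element was in 18.2% of heat-inducible members, 7.69% of members and 0.514% of all genes. No paired analysis was possible because the groups share a single replicate number, and no library could be left out with 1 per group. Depth limits members below about 1 CPM.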
